A study of Mus musculus with 5 samples.

Results

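The fibroblast growth factor (FGF) genes described here are 8 gene symbols chosen by name, of 14454 listed: the ligand genes Fgf2, Fgf7, Fgf10 and Fgf21 and the receptor genes Fgfr1, Fgfr2, Fgfr3 and Fgfrl1. RNA was sequenced in 5 lines derived from NIH/3T3 cells, which are mouse embryonic fibroblasts that grow indefinitely in culture. Each line had an integrated human histone H2A gene fused to EGFP, a green fluorescent protein. In 1 line the fused histone was wild type (wt). In the other 4, numbered 3, 6, 15 and 18, it carried T120D, in which a threonine of the H2A tail is replaced by aspartate. All lines were grown in DMEM with 10% fetal calf serum and 10 µg/ml gentamicin. The labels do not say what drives the fusion gene, nor whether a line is 1 clone or a pool. The series title ties phosphorylation of this threonine to transformation and cyclin D1, so the design sets the T120D lines against wt.

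Most FGFs are secreted proteins that act through receptor tyrosine kinases on the cell surface. Most bind together with heparan sulfate, a sugar chain of proteoglycans, and the activated receptor signals through the adaptor FRS2 to the RAS-MAPK cascade, which in turn induces its own inhibitors and ETS transcription factors. FGF7 and FGF10 are made by mesenchymal cells and act mainly on the epithelial splice form of FGFR2, whereas fibroblasts themselves respond chiefly through FGFR1. FGF21 is an endocrine ligand that needs the coreceptor beta-Klotho.

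Values are RPKM, read counts per unit of transcript length and of sequencing depth. The estimated depth was 2525000 to 2720000 reads per line, a shallow one, so a value near 1 RPKM rests on few reads. The wt group is a single line: every adjusted p below sets its distance against the spread between T120D lines, which may be partly technical. Of the 12 fibroblast markers looked at, 11 passed the filter on low values, and Vim reached 827 ± 22.3 RPKM (SD, n = 4) over the T120D lines, where wt had 701.1. Of these 11, 1 marker (Thy1) was called higher and 8 were called lower in T120D by limma. Over all tested genes 7.65% were called higher and 5.45% lower. The summed level of all 12 markers was 2328.9 to 2707.1 RPKM in T120D against 3113.7 in wt, where S100a4 alone had 1362.5. Of the other markers looked at, 3 of 8 epithelial, 3 of 6 endothelial and 3 of 6 adipocyte genes had values here. These did not exceed 0.572 RPKM in any line, and the rest were not analysed. Of 7 macrophage markers, 4 had values here. Cd14 was at 2.51 to 5.32 RPKM in the T120D lines and at 1.71 in wt. It was not called (log2 difference 0.83, limma adjusted p = 0.115). Cd68 was at most 1.46 RPKM (in wt), and Csf1r and Lyz2 did not exceed 0.748 RPKM. Whether these marker levels have a part in the results below was not tested. In bulk RNA, fewer cells of a kind and less RNA per cell cannot be told apart.

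Of the 8 genes, 5 passed the filter, a 5-line mean of 1 RPKM or more, and were tested, and 1 of these, Fgfr1, was called, with a lower level in T120D. By the same limma test 5.45% of all 10052 tested genes were called lower and 13.1% were called in either direction. No member was called higher (limma; 0 also at an unadjusted p under 0.05, where 2 were lower). Fgf2, Fgf21 and Fgfr3 were too low to test.

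**Figure D1:**
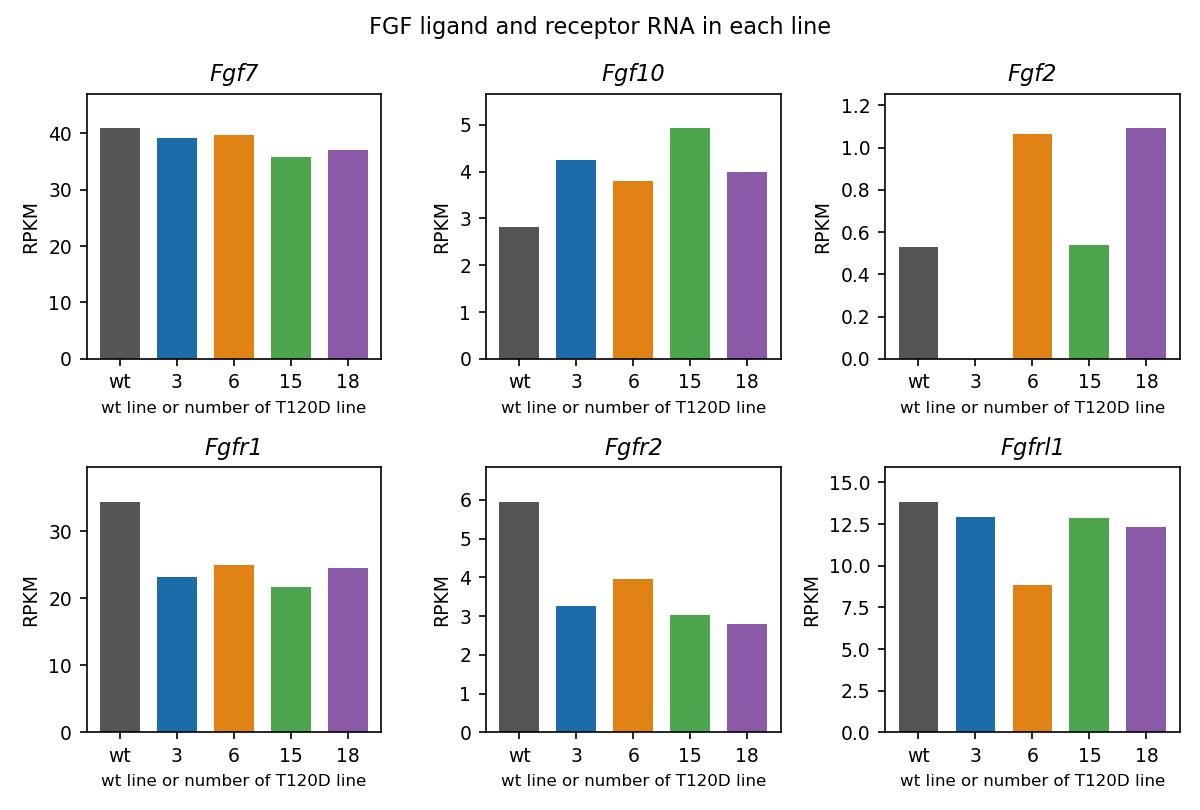
RPKM of 6 FGF ligand and receptor genes, 1 bar per line, with the wt line in grey and the T120D lines by number. Fgf7, Fgfr1, Fgfr2 and Fgfrl1 are highest in wt, and Fgf10 is lowest in wt. Fgf2 has no bar in line 3 because it is listed at 0 there.

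Fgf7 encodes keratinocyte growth factor, a paracrine signal from fibroblasts to epithelium, and was the most abundant of the 8 genes in every line. Its level was 40.9 RPKM in wt and 39.2, 39.7, 35.9 and 37.1 RPKM in T120D lines 3, 6, 15 and 18. The wt value was above all 4 T120D values, but only by a little: line 6, the nearest, had 0.97 times the wt level. The log2 difference was -0.11 (95% confidence interval -0.36 to 0.15, limma adjusted p = 0.586). The interval leaves room for a small change either way. With 254.3 to 297.3 estimated reads per line, Fgf7 was also the ligand with the most reads behind it.

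Fgf10, the closest relative of Fgf7 among these ligands and a signal for limb and lung budding in the embryo, was much lower. It stood at 2.81 RPKM in wt and at 4.24, 3.80, 4.93 and 3.99 RPKM in T120D lines 3, 6, 15 and 18. All 4 T120D lines lay above wt, as they did for 31.1% of tested genes. The T120D mean of 4.24 ± 0.496 RPKM (SD, n = 4) was 1.51 times the wt level. The log2 difference of 0.46 (SE 0.21) had an interval from -0.01 to 0.92 and was not called (limma adjusted p = 0.186). Some 31.4 reads stood behind the wt value and 42.2 to 53.8 behind those of the T120D lines. The RPKM of Fgf7 was 14.6 times that of Fgf10 in wt and 7.27 to 10.4 times in the T120D lines.

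Fgf2, the basic FGF that is a strong mitogen of fibroblasts, was barely detected. Its values were 0.528 RPKM in wt and 0, 1.06, 0.541 and 1.09 RPKM in T120D lines 3, 6, 15 and 18. Multiplied by the depth of each line, the 4 values above 0 were 1 or 2 times the smallest, which is the pattern of 1 or 2 reads. If the smallest is 1 read, the transcript model behind the values was about 697 bases long, against 5973 bases for the RefSeq-matched transcript in GENCODE M21, so reads in much of that transcript may not have been counted. A difference between groups was not detectable at this depth.

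Fgf21, a metabolic hormone gene that the transcription factor ATF4 induces under amino acid shortage and other stress, was listed at 0 in all 5 lines. One read of its 951-base transcript would have been about 0.39 to 0.42 RPKM. Of 12 listed genes of this stress response, 11 passed the filter, while Atf3 did not exceed 0.380 RPKM in any line. Of the 11 tested, 4 were lower in T120D and 0 higher by limma, against 5.45% called lower over all tested genes. At an unadjusted p under 0.05 the numbers were also 4 and 0. The median log2 difference was -0.35, against -0.02 over all tested genes. Ddit3, which encodes the stress factor CHOP, had 56.8 RPKM in wt and 14.0 ± 1.17 (SD, n = 4) in T120D. Trib3, encoding a pseudokinase induced by ATF4 and CHOP, was at 10.9 ± 0.618 against 37.9. The other calls were Ddit4, an inhibitor of mTORC1 signalling, and the lipoprotein receptor gene Vldlr, which passed the filter through its wt value of 3.33 RPKM. Ddit4 lost its call without line 15 (limma adjusted p = 0.0502), with unfiltered genes (0.119) and by limma without a trend (0.0795). Atf4 RNA itself was at 171.5 ± 17.1 RPKM against 174.1 (log2 difference -0.03, limma adjusted p = 0.913).

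The 250 bases before the start of Fgf21 (RefSeq, GRCm38.p6, chr7:45615491-45615740, minus strand) are shown because its known inducer binds a short element there. Capitals mark TGATGNAA, the C/EBP-ATF element, read here on the other strand, and TATAAA. The promoter of Fgf7 (chr2:126034408-126034657, plus strand), the ligand gene with the highest level, is given beside it and holds neither string.
Fgf21: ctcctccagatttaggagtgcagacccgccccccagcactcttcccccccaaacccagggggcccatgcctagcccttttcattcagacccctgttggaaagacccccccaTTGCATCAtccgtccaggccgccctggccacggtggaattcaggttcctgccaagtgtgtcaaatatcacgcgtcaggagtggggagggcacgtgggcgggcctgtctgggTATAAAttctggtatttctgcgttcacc
Fgf7: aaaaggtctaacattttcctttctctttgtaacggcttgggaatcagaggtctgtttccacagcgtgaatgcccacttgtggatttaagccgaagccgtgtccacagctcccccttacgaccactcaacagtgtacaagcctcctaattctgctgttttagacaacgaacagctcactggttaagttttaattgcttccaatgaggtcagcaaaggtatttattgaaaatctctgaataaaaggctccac

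Searched on both strands, TGATGNAA was in the window of 1 of the 7 members with a promoter in the table, and in 3.5% of all 32851 windows. It was in at least 1 window of 5 of the 12 stress response genes (Asns, Atf3, Chac1, Nupr1 and Vldlr). Of these 5, only Vldlr was called lower in T120D; Atf3 was not tested. The other genes called lower, Ddit3, Trib3 and Ddit4, had no match in their windows. TATAAA was in 12.4% of windows. The motifs were chosen after the sequence had been seen, and a match is a description of the letters only. The members' windows differed in composition: GC content was 43.6% for Fgf7 and 44.0% for Fgfr2, against 73.6% for Fgfrl1, with a median of 52.4% over all windows. Fgfrl1 had 30 CpG dinucleotides in its window and Fgfr2 had 2.

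Fgfr1, the main FGF receptor of fibroblasts, fell in T120D. Its level was 34.4 RPKM in wt and 23.1, 25.0, 21.6 and 24.5 RPKM in lines 3, 6, 15 and 18. The T120D values kept within a narrow band, and the wt line lay well above it. The mean of 23.5 ± 1.51 RPKM (SD, n = 4) was 1.46-fold below wt, with a log2 difference of -0.53 (SE 0.13, 95% confidence interval -0.82 to -0.24, limma adjusted p = 0.0277). The value rests on at least 217.7 estimated reads in each line. The call ended without line 3 (adjusted p = 0.0594), without line 15 (0.0526), with unfiltered genes (0.0551) and by limma without a trend (0.0823), while the log2 difference stayed between -0.60 and -0.49 over all 12 alternatives.

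Fgfr2, the receptor whose epithelial splice form binds FGF7 and FGF10, had the largest difference among the 5 tested members but was not called. It stood at 5.95 RPKM in wt and at 3.27, 3.95, 3.03 and 2.80 RPKM in lines 3, 6, 15 and 18. No T120D line reached the wt value. The wt level was 1.83 times the T120D mean of 3.26 ± 0.497 RPKM (SD, n = 4), a log2 difference of -0.71 (SE 0.22, interval -1.21 to -0.22, limma adjusted p = 0.0647). Line 6 was the nearest to wt, and without it the gene was called (log2 difference -0.79, limma adjusted p = 0.0445). Estimated reads were 24.4 to 46.0 in the T120D lines and 53.8 to 69.8 in wt, depending on the transcript taken. The tables give 1 value per gene, so the epithelial and mesenchymal splice forms cannot be told apart.

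Fgfrl1, a receptor-like protein that binds FGFs but lacks the kinase domain, was at 13.8 RPKM in wt and at 13.0, 8.85, 12.9 and 12.3 RPKM in lines 3, 6, 15 and 18. Line 6 stood apart from the other T120D lines, which lay close to wt. Estimated reads were few: 55.5 to 55.8 in line 6, 75.2 to 79.6 in the other T120D lines and 87.3 to 87.7 in wt. The log2 difference was -0.23 (interval -0.70 to 0.24, limma adjusted p = 0.503), and without line 6 it was -0.11 (limma adjusted p = 0.641). In line 6 Fgfr1 and Fgfr2 had the highest values of the T120D lines, the reverse of Fgfrl1. Fgfr3, a receptor of cartilage and epithelium, was listed at 0 in 4 lines and at 0.0940 RPKM in line 15, about 1.0 read.

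**Figure D2:**
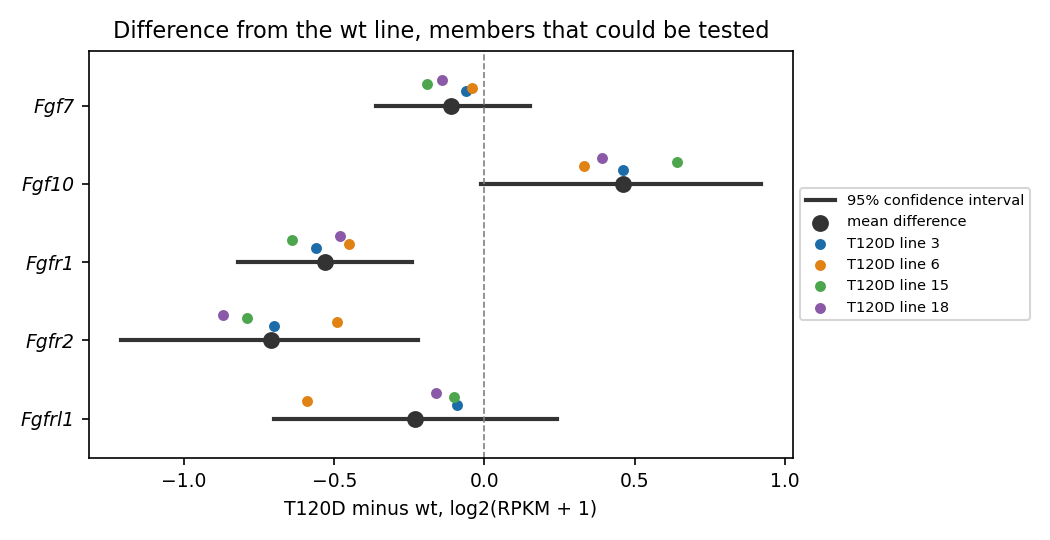
Difference of the T120D lines from the wt line in log2(RPKM + 1) for the 5 tested members: the black point is the mean, the bar its 95% confidence interval and the small points the single lines. The intervals of Fgfr1 and Fgfr2 lie below 0, that of Fgf10 reaches -0.01, and line 6 is apart for Fgfrl1.

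Ordered by RPKM, the wt line ran from Fgf7 through Fgfr1, Fgfrl1, Fgfr2 and Fgf10 to Fgf2. In T120D the order was the same except that Fgf10, at a mean of 4.24 RPKM, stood above Fgfr2 at 3.26. The ranges of these 2 genes over the T120D lines overlapped (3.80 to 4.93 and 2.80 to 3.95 RPKM); those of the other tested neighbours did not. The ratio of Fgfr2 to Fgf10 was 2.12 in wt and 0.615 to 1.04 in T120D. Fgfr2 and Fgf10 had the largest negative and positive differences among the tested members, so a shift of this ratio follows from their choice. Neither gene was called. Fgfr1 exceeded Fgfr2 5.78-fold in wt and 6.34-fold to 8.75-fold in T120D. For 4 of the 5 tested members wt lay above all T120D lines, as for 32.3% of all tested genes, and the members' median log2 difference was -0.23.

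The genes whose differences from wt were nearest to those of Fgfr2 over the 4 T120D lines, by Euclidean distance on the log2 scale, were AU040320 (distance 0.070), Btg1 (0.082), an antiproliferative gene, and Nfix (0.085), which encodes a transcription factor of the nuclear factor I family. Their log2 differences were -0.73, -0.74 and -0.72. For Fgf10 they were Tmem50b (0.053), Trub2 (0.074) and Topbp1 (0.079), with log2 differences of 0.44, 0.44 and 0.48. The median distance from Fgf10 over all tested genes was 1.09. With 4 lines and 10052 tested genes, near matches of this kind carry little weight.

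Of 18 further genes of the FGF family on the list, not all of which encode secreted ligands, 5 had values here and 0 passed the filter. The highest value was 0.256 RPKM, for Fgf18 in line 3, and Fgf22 was listed at 0 throughout. The other 13 were not analysed here, nor was Fgfr4. Klb, which encodes beta-Klotho, the coreceptor of FGF21, was at 0.109 RPKM in line 15 and at 0 elsewhere.

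On the list of cell-surface partners and binding proteins of FGFs and their receptors, 9 of 12 genes had values here and 4 passed the filter. Of these 4, 3 were called higher in T120D and 0 lower, against 7.65% called higher over all tested genes. The median log2 difference of the 4 was 0.74. Flrt2, a leucine-rich transmembrane protein gene of a family that binds FGF receptors, was at 8.68 RPKM in wt and at 18.2, 20.2, 18.0 and 16.8 in lines 3, 6, 15 and 18 (log2 difference 0.99, limma adjusted p = 0.00324). Cdh2, the gene of N-cadherin, had 12.6 RPKM in wt and 21.5 ± 2.65 (SD, n = 4) in T120D, and Ncam1, a neural cell adhesion molecule gene, 12.2 and 21.7 ± 1.74. Both proteins are known to bind FGFR1 and also serve in adhesion apart from FGF. Cdh2 lost its call with unfiltered genes (limma adjusted p = 0.0869) and by limma without a trend (0.0642). Nrp1, a coreceptor gene for several growth factors, had a log2 difference of 0.39 (limma adjusted p = 0.209).

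Among the heparan sulfate enzymes 14 of 21 listed genes were tested, and 1 was lower and 0 higher by limma. At an unadjusted p under 0.05 the numbers were 1 and 1. The share called was 7.14%, against 13.1% over all tested genes, and the median log2 difference was 0.04. The called gene, Glce, encodes the epimerase that makes iduronic acid in the chain. It was at 24.5 RPKM in wt and at 9.58, 14.3, 13.7 and 13.6 in lines 3, 6, 15 and 18, with line 3 the lowest. With unfiltered genes it was no longer called (limma adjusted p = 0.11), nor was it by limma without a trend (0.061). Ext1, encoding a polymerase of the chain, was at 22.4 ± 2.35 RPKM (SD, n = 4) against 18.9 (limma adjusted p = 0.342). Sulf2, which encodes a sulfatase that trims heparan sulfate outside the cell, was at 1.54 RPKM in wt, 0.0998 in line 18 and 0 in lines 3, 6 and 15. It did not pass the filter and was picked out after its values were seen.

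Of 10 tested core proteins that carry such chains, 1 was lower and 0 higher by limma, and 4 and 1 at an unadjusted p under 0.05. The share called was 10%, against 13.1% over all tested genes, and the median log2 difference was -0.09. Tgfbr3, which encodes betaglycan, a binder of TGF-beta that also binds FGF2, was at 33.5 RPKM in wt and at 13.8, 16.1, 12.4 and 13.9 in lines 3, 6, 15 and 18 (log2 difference -1.20, limma adjusted p = 0.00177). The T120D lines were alike and all far below wt. Sdc4, a syndecan gene, had 67.8 RPKM in wt and 46.6 ± 7.99 (SD, n = 4) in T120D (limma adjusted p = 0.0787). Sdc1 was at 33.8 ± 1.58 against 33.1. Without line 6 the list had 3 lower calls, and without line 15 it had 2.

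Of the adaptors and effectors next to the receptor, 16 were tested, and 2 were lower and 0 higher by limma. At an unadjusted p under 0.05 the numbers were 2 and 1. The share called was 12.5%, against 13.1% over all tested genes, and the median log2 difference was 0.04. Pik3r1, which encodes the regulatory subunit p85 of PI3-kinase, was at 32.1 RPKM in wt and at 6.03, 7.76, 8.06 and 6.84 in lines 3, 6, 15 and 18, 4.48-fold lower on average (log2 difference -2.03, limma adjusted p = 0.000266). Shc1, encoding an adaptor of many receptor kinases, was at 21.1 ± 0.590 RPKM (SD, n = 4) against 30.2 (log2 difference -0.49, limma adjusted p = 0.0282). The call of Shc1 ended without line 3 (limma adjusted p = 0.0588), 15 (0.0587) or 18 (0.0509), with lines 3, 15 and 18 averaged as 1 sample (0.0533) and by limma without a trend (0.08). Frs2, the gene of the docking protein that FGF receptors use, had 14.3 RPKM in wt and 14.3 ± 2.03 (SD, n = 4) in T120D (limma adjusted p = 0.995), and Grb2 at 16.9 ± 0.835 against 16.0.

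Feedback inhibitors and ETS factors that FGF signalling induces were higher where they were called. Of 8 tested, 3 were higher and 0 lower by limma, against 7.65% called higher over all tested genes. At an unadjusted p under 0.05 the numbers were 4 and 0, and the median log2 difference was 0.56. Dusp6, the gene of an ERK phosphatase, was at 6.56 RPKM in wt and at 15.8, 14.7, 14.8 and 13.2 in lines 3, 6, 15 and 18 (log2 difference 1.04, limma adjusted p = 0.0031). Etv4 rose from 0.628 RPKM in wt to 7.89 ± 0.917 (SD, n = 4; log2 difference 2.44, limma adjusted p = 0.000187) and Etv5 from 2.11 to 4.91 ± 0.841 (log2 difference 0.91, limma adjusted p = 0.0292). Etv4 was below 1 RPKM in wt and passed the filter through the T120D lines, so its place among the tested genes already required a difference. These genes respond to many receptors that signal through ERK, not to FGF alone. The call of Etv5 ended without line 18 (limma adjusted p = 0.0502) and with unfiltered genes (0.0866). Spry2, a Sprouty inhibitor gene, had 6.15 RPKM in wt and 10.2 ± 1.63 (SD, n = 4) in T120D and was not called (log2 difference 0.63, limma adjusted p = 0.0727). Not every gene of the list went this way. Il17rd, another inhibitor gene, was at 1.43 RPKM in wt and at 0.385 to 0.943 in the T120D lines, and did not pass the filter. Spry1 was at 1.18 RPKM in wt, at 0.905 in line 15 and at 2.08 to 3.49 in the other T120D lines. It was not called (limma adjusted p = 0.46). The lists were assembled with earlier results of these data known, so their counts are descriptive.

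**Figure D3:**
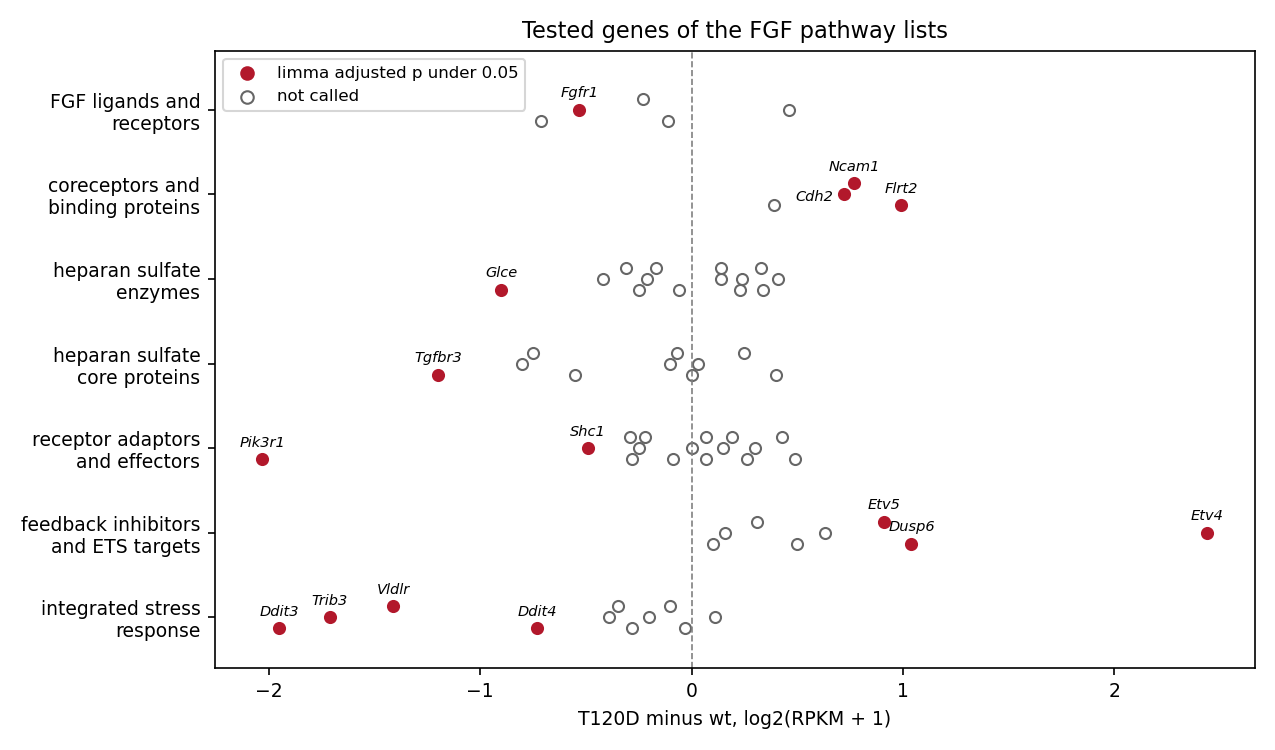
Difference between T120D and wt in log2(RPKM + 1) for each tested gene of 7 lists, 1 point per gene, spread vertically for legibility, with filled red points for genes called at a limma adjusted p under 0.05. Fgfr1 is the 1 filled point among the FGF ligands and receptors, the 3 called feedback genes lie to the right of 0, and Pik3r1 lies at -2.03.

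**Figure D4:**
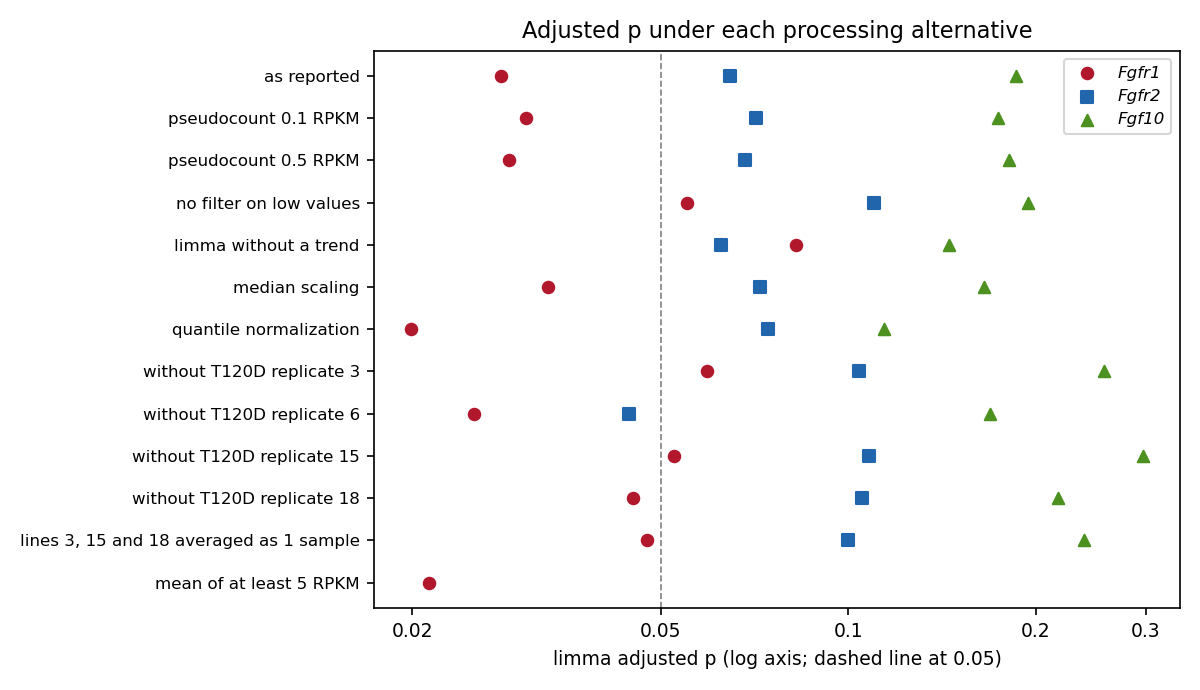
Limma adjusted p of Fgfr1, Fgfr2 and Fgf10 as reported and under each processing alternative, on a log axis, with a dashed line at 0.05. Fgfr1 crosses the line in 4 of 12 alternatives, Fgfr2 falls below it without line 6, and Fgf10 stays above it throughout; neither Fgfr2 nor Fgf10 passed a mean of 5 RPKM.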

How the data were processed

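Messenger RNA was profiled in 4 T120D lines and 1 wt line. Per the file headers and the labels, the authors deposited 1 table per line of RPKM values; the submitters' processing notes name Partek and mouse build mm9. For aligner, annotation and strand setting, the sources used here give nothing, so genes that overlap others are uncertain. Depth was estimated as the number of reads at which low RPKM values of 1648 single-transcript genes (GENCODE M21 lengths) came nearest to whole reads; 48.1% to 53.1% came within 0.05 reads, so read numbers are approximate and no count model was used.

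Values were taken as log2(RPKM + 1), on which differences of low genes are understated. Genes whose 5-line mean reached 1 RPKM entered limma 3.58.1 in R 4.3.3 (eBayes with an intensity trend, two-sided, Benjamini-Hochberg over all 10052 genes, calls under 0.05). The T120D lines alone supply the spread (residual degrees of freedom 3, prior 5.99), which wt is assumed to share. With 1 wt line, the smallest p that an exact permutation allows is 0.2. Nothing in the labels says that the lines came from separate cultures, so p-values measure only the spread between these samples. The fit was tried on simulated data in which wt shared the spread of the T120D lines, so that assumption itself was not tested. Of 100 changes each of log2 size 1 and 2, 92% and 93% were recovered, and 12 unchanged genes were called. Members and gene lists were chosen with earlier results of these data known. Named were all 8 members, up to 4 called genes per list with the largest differences, and the 3 genes most like the tested members with the largest positive and negative difference; further genes of the lists were named as examples after their values were seen. The 12 alternatives changed the pseudocount, filter, trend, scaling or lines used. Promoter sequences are from RefSeq, GRCm38.p6; 7 of 8 members matched.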

Additional observations from a re-analysis of the deposited data

Results flagged for a closer look

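For 2 of the 19 genes looked at (the tested members and the called genes of the pathway lists), 1 T120D line stood far from the other 3 on the log2 scale. Fgfrl1 was at 8.85 RPKM in line 6 and at 12.3 to 13.0 RPKM in the others, and the gap to the nearest line was 0.870 of the group's range, above the 95% critical value of Dixon's test for 4 samples. Glce was at 9.58 RPKM in line 3 and at 13.6 to 14.3 RPKM in the others, a gap of 0.879 of the range. Chance gives such a gap in about 1 of 20 groups.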

How the results depend on the processing

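No paired analysis was possible because the wt group is 1 line and shares no replicate number with the T120D lines. None of the 5 tested members changed direction under the alternatives that could be fitted, and Fgf7, Fgf10 and Fgfrl1 stayed uncalled throughout. The call of Fgfr1 ended at an unchanged log2 difference of -0.53 without the filter on low values and by limma without a trend; leaving out 1 T120D line gave -0.56 to -0.49 for Fgfr1 and -0.79 to -0.66 for Fgfr2. The number of members called was 0 without the filter and 0 without a trend (3 at an unadjusted p under 0.05 in both), and 0 to 2 leaving out 1 line. Without a trend 816 genes were called over all, against 1317, with 0 heparan sulfate enzymes and 1 adaptor or effector. Leaving out 1 line gave 959 to 1395 genes over all, 1 to 3 core proteins and 1 to 2 adaptors. Quantile normalization gave 2 core proteins, and averaging lines 3, 15 and 18 as 1 sample gave 1 adaptor. Without the filter 45.8% of calls were higher, against 58.4%. Depth limits Fgfr3, with about 1.0 read in 1 line, and Fgf21, listed at 0; the reads behind Fgf2 depend on the length of its transcript model, which is not known.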
